A study of Mus musculus with 36 samples.

Results

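The libraries described here are the spinal cord samples of ChAT-Cre;Ribo-tag mice taken just after birth, on postnatal day 0.5 (P0.5), and in the embryo, at E15.5 (E, embryonic day). They were chosen by their column labels, 3 libraries of P0.5 spinal cord and 3 of E15.5 spinal cord, and are 6 of the 36 libraries of the study. The study, on protein synthesis at the neuromuscular synapse, sequenced ribosome-bound RNA from spinal cord and from synapse-enriched diaphragm muscle at 4 ages, which were E15.5, P0.5, P10 and the adult of 2 months. A Ribo-tag mouse carries an allele of the ribosomal protein gene Rpl22 that gains a haemagglutinin (HA) tag after Cre recombination, so that tagged ribosomes and their RNA can be pulled down with an antibody. Both ages share the 2 alleles: ChAT-Cre, in which the promoter of choline acetyltransferase drives Cre, and the Ribo-tag allele. The fraction sequenced is the HA-purified RNA in every library.

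Several facts limit these libraries as a model of one cell type. Cre under the Chat promoter marks cholinergic cells, which in spinal cord are motor neurons, preganglionic autonomic neurons and some interneurons. No spinal cord of Ribo-tag mice without Cre is among the samples, so RNA that came through the purification without the tag was not measured in this tissue. The labels do not name the level of the cord that was dissected, or state whether the 3 libraries of an age came from separate animals. The p-values below therefore measure the spread between libraries, which may be technical.

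Between E15.5 and birth the motor neurons of the mouse cord have left the cell cycle, have reached their muscles and pass through the period of programmed cell death and synapse refinement. Over the same days the cord around them makes astrocytes and the first myelinating oligodendrocytes. Position along the cord is written in the Hox genes, chromosomal clusters whose low-numbered paralogues are expressed from the hindbrain downward and whose high-numbered paralogues are expressed in lumbar and sacral segments.

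The P0.5 libraries held 69.9, 71.8 and 70.4 M reads (M, 1000000), against 64.2, 63.7 and 64.0 M reads in the E15.5 libraries. Levels are given in CPM, counts scaled to a library total of 1000000, which are comparable between libraries but not between genes of different length. Replicates correlated at 0.991 or above over all genes. At both ages replicate 3 lay between the other 2: it was best written as 0.549 of replicate 1 plus 0.45 of replicate 2 at P0.5, and as 0.574 plus 0.425 at E15.5. Such a library adds less information than an independent sample, so tests of single genes described below that fail without replicate 3 of every age are named, as are counts of at least 4 rises or falls in a list that move by over 1.5 times.

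Differences are P0.5 minus E15.5 on the scale of log2(CPM + 1), and were tested with limma across all 13373 genes with at least 1 CPM in 3 or more spinal cord libraries. Benjamini-Hochberg adjusted p under 0.05 marks a changed gene. Folds printed for single genes are ratios of mean CPM. A call of at least 2-fold instead needs a log2 difference of at least 1 in either direction on the log2(CPM + 1) scale. That scale shrinks the changes of low genes, so some with a larger ratio of means are not counted. Between P0.5 and E15.5, 9668 genes changed, 72.3% of those tested: 3732 rose (27.9%) and 5936 fell (44.4%). The 3 P0.5 libraries did not overlap the 3 E15.5 libraries for 10126 genes, 75.7% of those tested. A change of at least 2-fold was called for 1397 genes (10.4%), of which 588 rose (4.4%) and 809 fell (6.05%). At this background rate a call alone says little about a gene, and the sizes and the grouping of the changes carry more.

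The balance of rises and falls depended on how the libraries were scaled. The median gene differed by −0.13 on the CPM scale, by 0.01 after median-of-ratios (RLE) scaling, by −0.03 after quantile normalization and by 0.0 after trimmed-mean (TMM) scaling. Of the called genes, 38.6% rose on the CPM scale, against 50.8% with RLE, 50.4% with TMM and 47.7% with quantile normalization. A list is therefore read against the median of −0.13 and against the 27.9% of tested genes that rose and the 44.4% that fell. Its counts under RLE scaling are given in parentheses, in the same order as those on the CPM scale. Under RLE scaling 4881 of the 13373 genes rose and 4735 fell. A list with counts near these shares shows no more than the background. Without replicate 3 of each age 7592 genes changed, 2814 upward and 4778 downward, and 1435 changed at least 2-fold.

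**Figure D1:**
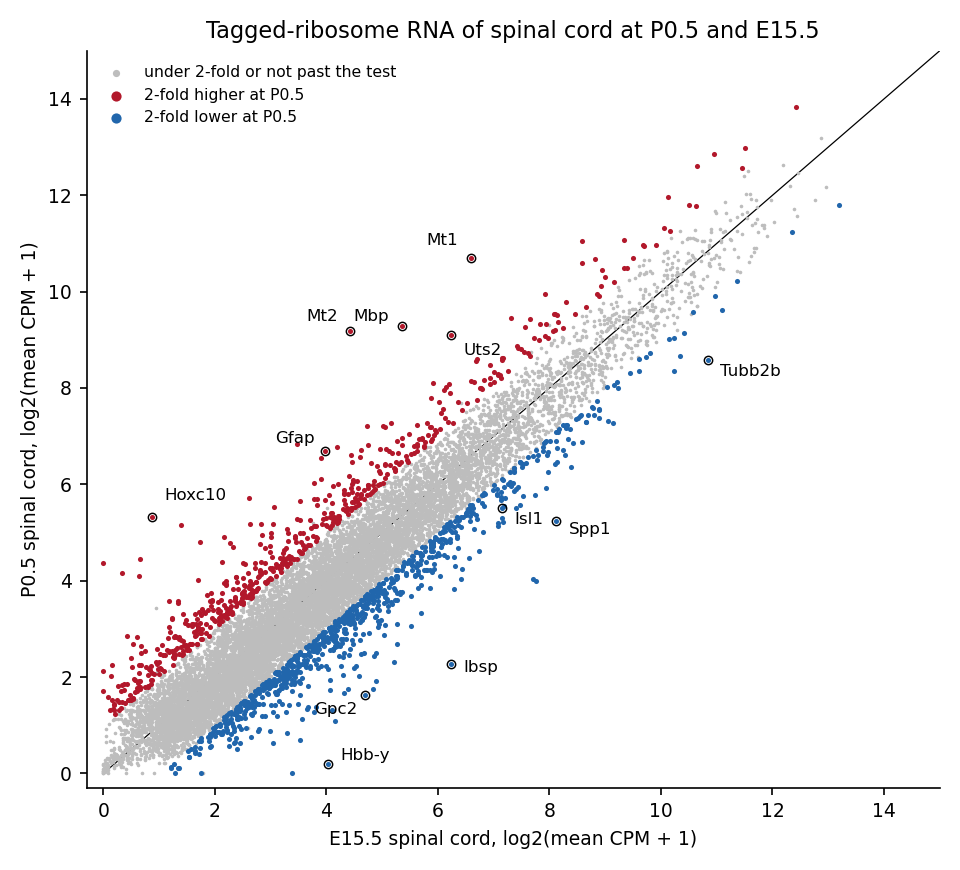
Mean level of each of the 13373 tested genes in P0.5 spinal cord (vertical axis) against E15.5 spinal cord (horizontal axis), both as log2(CPM + 1). Red points are the 588 genes at least 2-fold higher at P0.5, blue points the 809 at least 2-fold lower, and Mt2, Hoxc10 and Mbp stand far above the diagonal, with Ibsp and Hbb-y far below it.

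Metallothioneins, posterior Hox genes, myelin genes and astrocyte genes were among the largest increases. Metallothioneins are small cysteine-rich proteins that bind zinc and copper, and their genes respond to metals and glucocorticoids. Mt2 had 485, 683 and 562 CPM at P0.5, against 22.7, 16.8 and 22.3 CPM at E15.5. Its log2 difference of 4.74 (SE 0.12, limma adjusted p 6.1e-12) was the largest among the genes named here, and its mean was 28.0-fold higher. Mt1 had 1360.5, 2030.1 and 1611 CPM at P0.5, against 109, 76.2 and 101 CPM at E15.5, a log2 difference of 4.11 (SE 0.14). The lowest P0.5 library of either gene was far above the highest E15.5 library, and replicate 2 was the highest at P0.5 and the lowest at E15.5.

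The third member, Mt3, is the metallothionein of the nervous system. It had 1387, 1454 and 1348 CPM at P0.5, against 564, 423 and 479 CPM at E15.5, a log2 difference of 1.52 (SE 0.10), well under those of Mt1 and Mt2. The later ages separated the 3 genes as well. Mt2 averaged 97.3 ± 3.36 CPM at P10 and 134 ± 4.17 CPM in the adult, and Mt1 averaged 307 ± 1.75 and 465 ± 10.7 CPM (SD, n = 3 each), so that both had their highest level of the 4 ages at P0.5. Mt3 averaged 1444 ± 117 CPM at P10 and 2017 ± 201 CPM in the adult.

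The 3 genes lie next to each other on chromosome 8 (Mt3 at chr8:94152607-94154148, Mt2 at chr8:94172618-94173567 and Mt1 at chr8:94178883-94180327, GRCm38). Their RefSeq promoters (GRCm38.p6, plus strand, 250 bases before to 50 after a transcript start, which for Mt1 lies inside the gene's span) are shown because Mt1 and Mt2 moved together and are classical targets of the metal-responsive transcription factor. Capitals mark matches, on either strand, to the core of the metal response element, TGCACNC or TGCGCNC.
Mt2, chr8:94172368-94172667: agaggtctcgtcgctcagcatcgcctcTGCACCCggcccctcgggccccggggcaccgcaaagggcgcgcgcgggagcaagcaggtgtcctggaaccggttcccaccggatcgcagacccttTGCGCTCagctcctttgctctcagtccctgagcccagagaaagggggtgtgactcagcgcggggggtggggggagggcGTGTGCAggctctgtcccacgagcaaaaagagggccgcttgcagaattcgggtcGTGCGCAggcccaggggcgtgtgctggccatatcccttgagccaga
Mt1, chr8:94178839-94179138: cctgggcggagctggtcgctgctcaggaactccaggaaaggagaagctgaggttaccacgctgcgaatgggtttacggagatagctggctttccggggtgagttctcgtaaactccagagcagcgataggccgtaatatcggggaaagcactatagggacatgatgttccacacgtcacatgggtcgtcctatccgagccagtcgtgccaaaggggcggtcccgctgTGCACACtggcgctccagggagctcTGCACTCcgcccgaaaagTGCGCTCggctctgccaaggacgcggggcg
Mt3, chr8:94152357-94152656: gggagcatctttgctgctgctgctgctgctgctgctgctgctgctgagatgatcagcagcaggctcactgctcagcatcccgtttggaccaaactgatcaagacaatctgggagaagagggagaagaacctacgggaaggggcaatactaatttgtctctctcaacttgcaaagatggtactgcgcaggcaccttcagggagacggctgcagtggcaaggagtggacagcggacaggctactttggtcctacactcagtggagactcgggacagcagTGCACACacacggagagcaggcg
The Mt2 window held 4 matches, the Mt1 window 3 and the Mt3 window 1. Of the 14746 promoter windows of all genes, 36.3% held at least 1 match, so a single one is common, and these matches describe letters and not bound sites. The motif was chosen after the levels of these genes had been seen.

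The list of glucocorticoid and stress response genes, to which the metallothioneins belong, had 19 tested members. Of these 12 rose and 3 fell (RLE 12 and 2), the median difference was 0.47, and 4 rose at least 2-fold. The fourth of those was Hspb1, a small heat shock protein found in motor neurons, with 180.4, 111 and 154 CPM at P0.5, against 45.8, 47.9 and 51.1 CPM at E15.5. Ddit4 went the other way, with a log2 difference of −1.135, and Sgk1, Klf15, Zbtb16 and Nr3c1 did not pass the test. The list made up 0.4192% of all CPM at P0.5, against 0.096% at E15.5. Most of this came from the metallothioneins. Mt1, Mt2 and Mt3 averaged 1667, 577 and 1396 CPM at P0.5, against 95.4, 20.6 and 488 CPM at E15.5.

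Hox genes of the posterior paralogue groups separated the ages almost completely. Hoxc10, a transcription factor of lumbar segments (chr15:102966796-102971898), had 39.1, 37.97 and 39.9 CPM at P0.5, against 0.918, 0.722 and 0.844 CPM at E15.5. Its log2 difference was 4.45 (SE 0.08, limma adjusted p 1.1e-14), a 47.0-fold higher mean. Hoxd10 (chr2:74684273-74695106), which patterns lumbar motor neurons, had 19.03, 18.3 and 21.9 CPM at P0.5, and no read in any E15.5 library. With a floor of 3 reads per library this was at least 420.8-fold higher.

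The neighbouring paralogues gave the same picture. Hoxa10 had 13.6, 15.8 and 18.8 CPM at P0.5, against 0.483, 0.753 and 0.406 CPM at E15.5 (log2 difference 3.46, SE 0.12). Hoxa11 had 3.62, 3.26 and 3.17 CPM at P0.5 and no read in the E15.5 libraries, at least 71.4-fold higher. Hoxd9, of paralogue group 9, had 21.2, 20.3 and 21.5 CPM at P0.5, against 0.389, 0.722 and 0.61 CPM at E15.5 (log2 difference 3.81, SE 0.12). Hoxd11 was below the filter, with 0.543, 0.794 and 0.711 CPM at P0.5 and no read at E15.5.

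Genes of paralogue groups 10 and above were also near 0 at the later ages. Hoxc10 averaged 0.205 ± 0.0867 CPM at P10 and 0.831 ± 0.0363 CPM in the adult (SD, n = 3 each), and neither Hoxd10 nor Hoxa11 had a read in any P10 or adult library. Hoxd9 of group 9 averaged 2.72 ± 0.688 CPM at P10 and 7.76 ± 0.374 CPM in the adult (SD, n = 3 each). Among the 4 ages the signal of paralogue groups 10 and above was thus seen in the P0.5 libraries almost alone. All 4 tested genes of paralogue groups 10 to 13 rose at least 2-fold, and the same 4 did so without replicate 3 of each age. They reached 1 CPM in the P0.5 libraries only, and so passed the filter through that age. That every tested gene of these groups rose was therefore set by the filter and is no separate support.

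More anterior Hox genes moved the other way. Of the 15 tested genes of paralogue groups 4 to 8, 10 fell and 1 rose (RLE 9 and 2), with a median of −0.57 and 5 at least 2-fold lower. Hoxc6, which sets forelimb-level motor neuron identity, had 8.31, 9.90 and 8.87 CPM at P0.5, against 44.5, 57.1 and 50.8 CPM at E15.5 (log2 difference −2.37, SE 0.09). Hoxc8, a brachial and thoracic gene, had 95.5, 126 and 122 CPM at P0.5, against 284, 401 and 337 CPM at E15.5. Hoxc4, Hoxb8 and Hoxc5 differed by −1.47, −1.36 and −1.27 on the log2 scale, while Hoxa7 differed by 0.14 with overlapping libraries. Hoxd8, the 1 gene of these groups that rose, differed by 0.23 and was lost without replicate 3 of each age (adjusted p 0.272).

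Group 9 was mixed: Hoxd9 and Hoxa9 rose, Hoxb9 fell by 1.05 on the log2 scale to 35.2, 32.0 and 33.9 CPM at P0.5, against 67.2, 76.6 and 69.0 CPM at E15.5, and Hoxc9 overlapped between ages. Of the 6 tested genes of groups 1 to 3, 3 rose and 3 fell (RLE 3 and 3), and without replicate 3 of each age 2 of 7 rose and 4 fell. The Hox groupings were drawn up after these values had been seen. Since the level of the cord is not stated, a difference in the segments dissected and a difference in expression within segments cannot be told apart in these libraries.

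**Figure D2:**
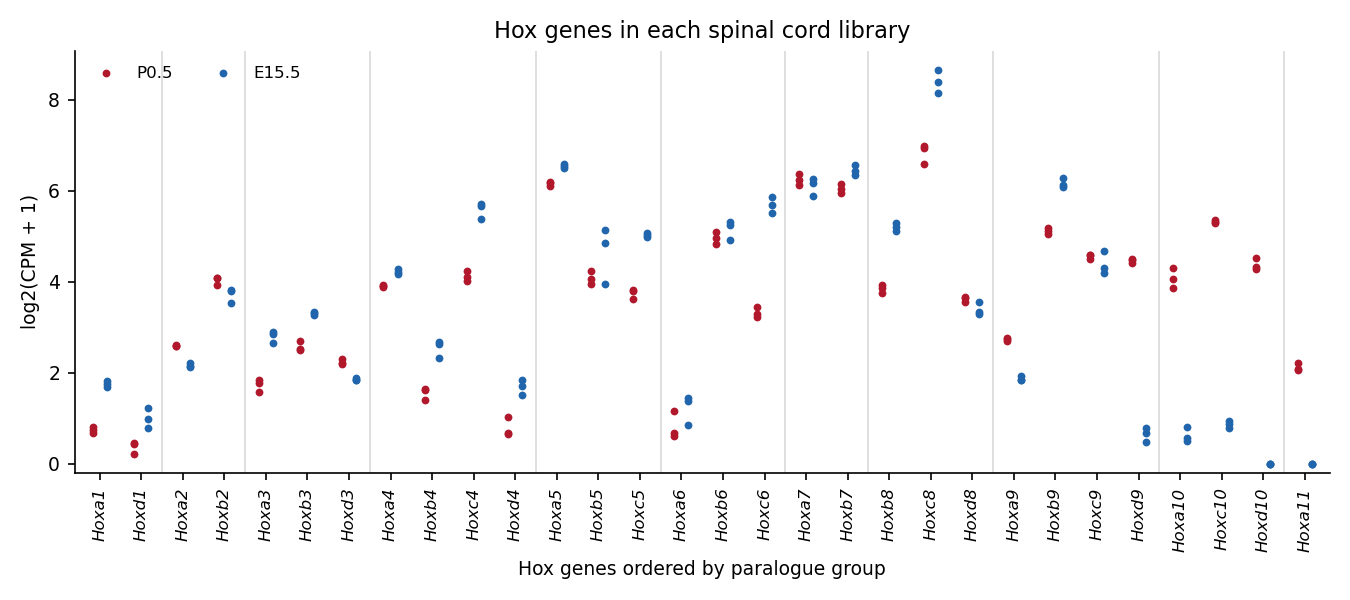
Level of each Hox gene with at least 1 CPM in some library, as log2(CPM + 1), in the 3 P0.5 libraries (red, left of each pair) and the 3 E15.5 libraries (blue, right), ordered by paralogue group. Groups 10 and above, together with Hoxd9, are high in all 3 P0.5 libraries and near 0 in all 3 E15.5 libraries, whereas Hoxc4, Hoxc5, Hoxc6 and Hoxc8 are lower at P0.5.

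Most myelin genes rose. Of the 20 tested genes of the myelinating oligodendrocyte list 18 rose and none fell (RLE 20 and 0), with a median of 1.19 and 12 genes at least 2-fold higher. Mbp, which encodes the basic protein that compacts the myelin sheath, had 651, 603 and 625 CPM at P0.5, against 48.9, 32.3 and 37.9 CPM at E15.5 (log2 difference 3.97, SE 0.23, limma adjusted p 3.1e-07). Mobp, another myelin structural protein, had 36.5, 33.5 and 34.3 CPM at P0.5, against 1.95, 1.27 and 1.63 CPM at E15.5, a 21.5-fold higher mean.

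None of these myelin genes overlapped between the ages. Mag, an adhesion protein of the inner myelin wrap, had 32.1, 27.6 and 27.3 CPM at P0.5, against 4.30, 2.53 and 3.55 CPM at E15.5. Pllp, plasmolipin of the myelin membrane, differed by 3.10 on the log2 scale. At P10 Mbp averaged 12322 ± 2137 CPM (SD, n = 3), and the whole list took 2.0179% of all CPM, against 0.1159% at P0.5 and 0.0227% at E15.5.

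Genes of the oligodendrocyte precursor moved less. Of 15 tested, 9 rose and 4 fell (RLE 9 and 4), with a median of 0.37 and 3 at least 2-fold higher. Sox10, the transcription factor that holds the lineage, had 16.1, 15.2 and 16.1 CPM at P0.5, against 6.23, 5.20 and 6.001 CPM at E15.5 (log2 difference 1.31, SE 0.10). Bcas1, a protein of newly forming oligodendrocytes, had 16.6, 16.96 and 17.8 CPM at P0.5, against 6.18, 5.75 and 6.45 CPM at E15.5. Gpr17, a receptor of the committed precursor, differed by 0.96. Olig2, which specifies motor neuron progenitors first and oligodendrocytes later, differed by 1.22 (SE 0.18).

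Of the 25 astrocyte genes, 22 rose and none fell, with a median of 1.12 and 15 at least 2-fold higher. Under RLE scaling all 25 rose. Gfap, the astrocytic intermediate filament, had 104, 104 and 99.0 CPM at P0.5, against 21.0, 7.52 and 15.8 CPM at E15.5 (log2 difference 2.82, SE 0.29, limma adjusted p 1.9e-05). Agt, angiotensinogen, which spinal and brain astrocytes secrete, had 46.0, 58.0 and 50.0 CPM at P0.5, against 5.92, 3.19 and 6.20 CPM at E15.5. Ntsr2, an astrocytic neurotensin receptor, had 30.1, 31.3 and 30.3 CPM at P0.5, against 8.95, 5.70 and 6.38 CPM at E15.5. Relative to the mean, the E15.5 libraries spread more widely than the P0.5 libraries for all 3 genes, with replicate 2 lowest.

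The remaining astrocyte genes that rose at least 2-fold included the lipid phosphatase Plpp3 (1.32), the glutamate transporter Slc1a2 (1.23), the water channel Aqp4 (1.199), glutamine synthetase Glul (1.25) and apolipoprotein Apoe (1.25), values on the log2 scale. Slc1a3, Aldh1l1 and Clu differed by 0.17, 0.17 and 0.18 and did not pass the test. The list took 0.612 ± 0.0284% of all CPM at P0.5, against 0.29 ± 0.0596% at E15.5 (SD, n = 3 each).

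These glial transcripts were recovered in a purification driven by Chat-Cre, and the share of them that came without the tag was not measured. The summed level of 5 defining astrocyte markers was 187.4 to 191.8 CPM at P0.5, against 50.1 to 82.0 CPM at E15.5. That of 6 oligodendrocyte lineage markers was 815.5 to 885.2 CPM at P0.5, against 102.0 to 131.6 CPM at E15.5. No marker of either type was at 0 at either age. In libraries of a bulk tissue, fewer cells of a type and less RNA per cell cannot be told apart.

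**Figure D3:**
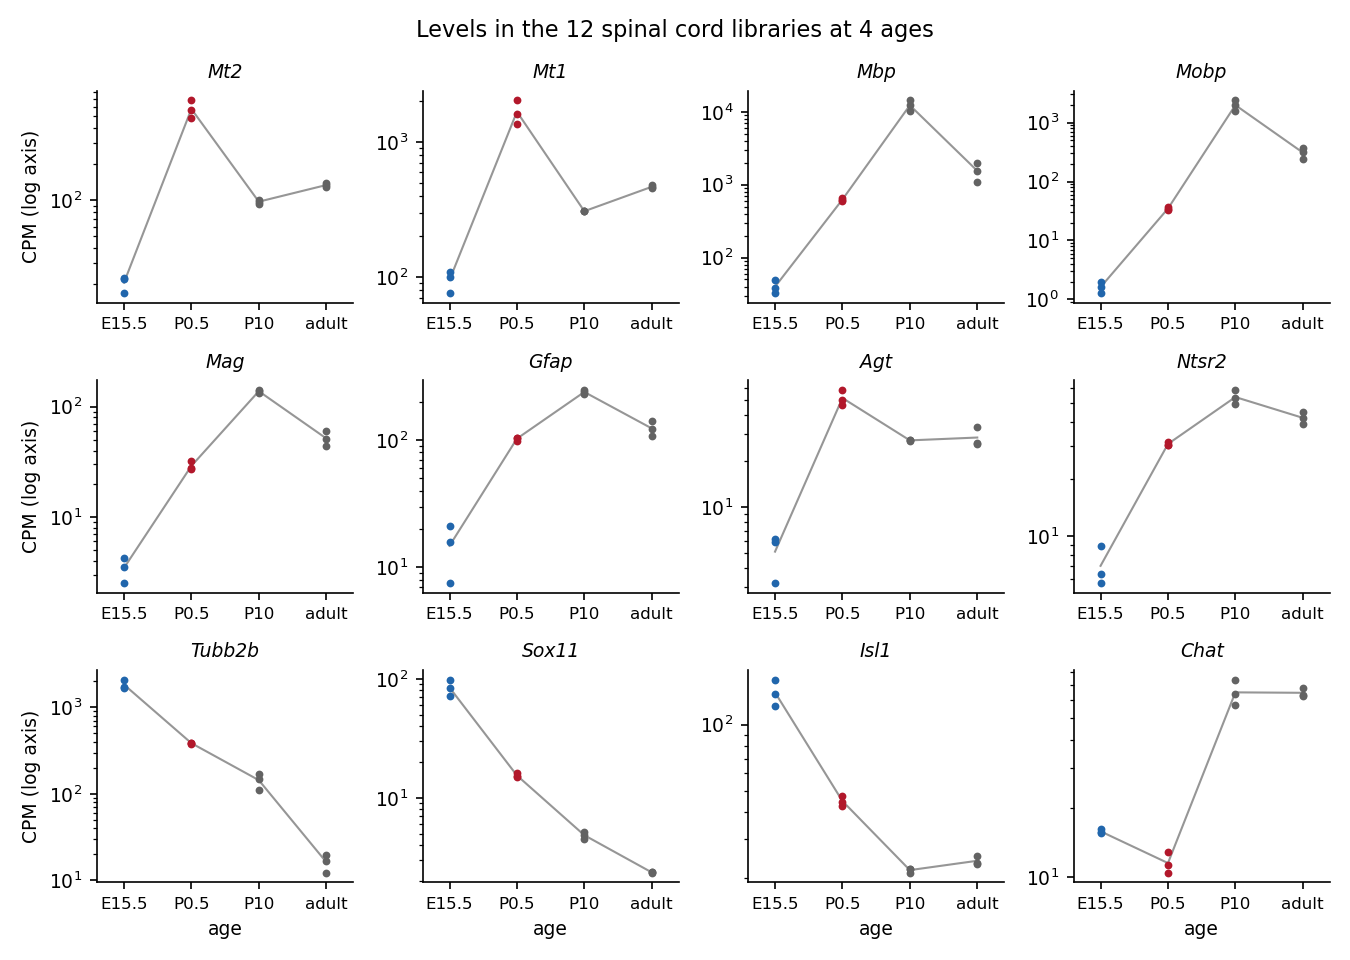
Level in CPM (log axis) of 12 genes in spinal cord at E15.5, at P0.5, at P10 and in the adult, where dots are libraries and lines join the means. Mt1 and Mt2 are highest at P0.5, Mbp and Mag are highest at P10, and Tubb2b, Sox11 and Isl1 are highest at E15.5.

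Motor neuron and cholinergic genes changed in both directions. Of 28 tested, 8 rose and 14 fell on the CPM scale, near the 27.9% and 44.4% of all tested genes, with a median of −0.24. Under RLE scaling 13 rose and 13 fell. The summed level of 8 defining motor neuron markers was 1512 to 1703 CPM at P0.5, against 2198 to 2357 CPM at E15.5, and 4 of the 8 fell while none rose. Those 4 were Chat, Slc5a7, Isl1 and Prph, and most of the fall of the sum lay in Prph alone (log2 difference −0.58). Chat, the enzyme that makes acetylcholine and whose promoter drives Cre, had 12.8, 10.4 and 11.3 CPM at P0.5, against 15.8, 16.2 and 15.7 CPM at E15.5 (log2 difference −0.44, SE 0.09, limma adjusted p 4.0e-04). Slc5a7, the choline transporter that feeds it, had 38.1, 31.2 and 41.3 CPM at P0.5, against 66.7, 61.5 and 65.3 CPM at E15.5, a log2 difference of −0.80 (SE 0.08).

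Slc18a3, the vesicular acetylcholine transporter, overlapped between ages, with 276, 235 and 249 CPM at P0.5, against 259, 208 and 232 CPM at E15.5 (adjusted p 0.17). Its gene lies within the Chat locus, so reads of shared transcripts could be assigned to either. Mnx1, a transcription factor of motor neuron identity, also overlapped and differed by 0.12 (adjusted p 0.31), and the differences of Isl2 and Ret were 0.16 and 0.00. At P10 Chat and Slc5a7 averaged 64.9 ± 8.50 and 64.6 ± 4.01 CPM (SD, n = 3 each).

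Among the genes of the list that fell were developmental regulators. Isl1, a LIM homeodomain factor of newborn motor neurons, had 42.7, 44.5 and 47.3 CPM at P0.5, against 122, 160.5 and 138 CPM at E15.5 (log2 difference −1.61, SE 0.08). Aldh1a2, the retinoic acid synthesising enzyme of limb-level motor columns, which meninges also express, had 167, 175 and 177 CPM at P0.5, against 398, 501 and 430.0 CPM at E15.5 (log2 difference −1.35, SE 0.12). Lhx3 and Lhx4, motor neuron LIM factors, differed by −0.69 and −1.08, and Foxp1, which marks limb-innervating motor columns, by −0.84. As for the Hox genes, a difference in the segments dissected and a difference in expression within segments cannot be told apart here.

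Other genes rose. Uts2, urotensin 2, a neuropeptide of cholinergic motor neurons, was outside the list and had 598, 495 and 559.6 CPM at P0.5, against 81.9, 67.2 and 72.7 CPM at E15.5 (log2 difference 2.88, SE 0.09, limma adjusted p 3.0e-12). Gfra1, the co-receptor through which GDNF supports motor neurons, had 94.4, 80.2 and 88.6 CPM at P0.5, against 43.3, 35.4 and 38.9 CPM at E15.5 (log2 difference 1.14, SE 0.08). Tns1, which encodes the adhesion protein tensin 1, differed by 1.29 (SE 0.11), and Calca, the precursor of calcitonin gene-related peptide, by 0.90 (SE 0.15). Gpr39, a zinc-sensing receptor, had 17.2, 18.3 and 14.8 CPM at P0.5, against 0.327, 0.298 and 0.172 CPM at E15.5, and averaged 0.176 ± 0.135 CPM at P10 (SD, n = 3), an age pattern shared with Hoxc10.

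Rpl22, the gene of the tagged protein, had 48.3, 53.7 and 51.3 CPM at P0.5, against 52.7, 64.8 and 57.9 CPM at E15.5. The groups overlapped, the log2 difference was −0.19 (SE 0.07, limma adjusted p 0.029), and without replicate 3 of each age its adjusted p was 0.19. The table does not separate tagged from untagged Rpl22 transcripts.

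Genes of newborn neurons and growing axons were among the larger decreases. Of 24 newborn neuron genes 12 fell and 5 rose (RLE 11 and 8), near the 44.4% and 27.9% of all tested genes, with a median of −0.22 and 4 at least 2-fold lower. Without replicate 3 of each age 11 fell and 1 rose. Tubb2b, the beta tubulin of migrating and extending neurons, had 383, 391 and 379 CPM at P0.5, against 1679.9, 2088 and 1709 CPM at E15.5, a 4.75-fold lower mean. Sox11, a transcription factor of differentiating neurons, had 14.98, 15.3 and 16.02 CPM at P0.5, against 71.8, 98.7 and 83.5 CPM at E15.5 (log2 difference −2.37, SE 0.09, limma adjusted p 2.3e-11). Dcx, the microtubule protein doublecortin, had 27.7, 27.5 and 28.9 CPM at P0.5, against 63.1, 69.8 and 63.6 CPM at E15.5. Not all members followed: Crmp1 and Ebf1 differed by −0.06 and 0.00 and did not pass the test.

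Of 45 axon guidance genes 31 fell and 10 rose (RLE 30 and 10), with a median of −0.52, and 8 fell at least 2-fold. Slit2, a repellent for commissural and motor axons, had 4.50, 3.76 and 5.03 CPM at P0.5, against 16.5, 19.3 and 17.02 CPM at E15.5 (log2 difference −1.78, SE 0.09). Its family member Slit3 rose by 1.12. Among receptors, Epha4, which directs limb motor axons, had 17.5, 16.5 and 18.6 CPM at P0.5, against 42.9, 48.7 and 44.8 CPM at E15.5, and Epha3, Robo2 and Nrp1 differed by −1.35, −1.04 and −1.10. Efnb1, an ephrin ligand, differed by −1.77 (SE 0.14). The semaphorin receptors were split, since Plxna1 and Plxna4 rose by 0.61 and 0.49 while Plxna2 and Plxna3 fell by 0.75 and 0.90.

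Of 30 neuronal cytoskeleton genes 20 fell and 6 rose (RLE 18 and 9), with a median of −0.45 and 6 at least 2-fold lower. Sptbn1, a spectrin of the axonal membrane skeleton, differed by −1.48. Ank3, ankyrin G of the axon initial segment, had 23.8, 18.2 and 22.2 CPM at P0.5, against 53.3, 58.3 and 56.6 CPM at E15.5 (log2 difference −1.36, SE 0.08). The neurofilament genes Nefl and Nefm differed by 0.12 and 0.26 and Nefh by −0.36, of which Nefl did not pass the test. Gpc2 and Islr2, cell surface proteins of growing axons outside the lists, were among the largest decreases. Gpc2 had 2.00, 2.29 and 1.93 CPM at P0.5, against 20.3, 31.5 and 23.1 CPM at E15.5 (log2 difference −3.06), and Islr2 differed by −2.50.

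Proliferation genes were low at both ages and lower at P0.5. Of 21 tested mitosis genes 18 fell and 1 rose (RLE 15 and 1), with a median of −0.55, and of 27 S phase genes 16 fell and 5 rose (RLE 13 and 7), with a median of −0.37. Mki67, a nuclear protein of cycling cells, had 0.329, 0.571 and 0.497 CPM at P0.5, against 1.87, 2.39 and 2.16 CPM at E15.5 (log2 difference −1.10, SE 0.10). Cdk1, the kinase that starts mitosis, had 2.22, 2.38 and 2.02 CPM at P0.5, against 5.20, 6.12 and 5.81 CPM at E15.5 (log2 difference −1.07, SE 0.11). Tyms, which makes thymidylate for DNA synthesis, differed by −1.19. The exception in the mitosis list, Ube2c, an E2 enzyme of the anaphase-promoting complex, had 15.7, 16.9 and 15.7 CPM at P0.5, against 10.04, 8.19 and 7.35 CPM at E15.5.

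The promoters of 2 of these mitosis genes are shown because their windows held motifs that many mitosis promoters share: CCAAT, the site of the factor NF-Y, and TTTGAA, the core of the cell cycle homology region. Capitals mark CCAAT on either strand in the promoter of Ccnb2, the gene of cyclin B2, and TTTGAA on either strand in that of Cdk1 (RefSeq, GRCm38.p6, minus strand, 5′ to 3′).
Ccnb2, chr9:70421505-70421804: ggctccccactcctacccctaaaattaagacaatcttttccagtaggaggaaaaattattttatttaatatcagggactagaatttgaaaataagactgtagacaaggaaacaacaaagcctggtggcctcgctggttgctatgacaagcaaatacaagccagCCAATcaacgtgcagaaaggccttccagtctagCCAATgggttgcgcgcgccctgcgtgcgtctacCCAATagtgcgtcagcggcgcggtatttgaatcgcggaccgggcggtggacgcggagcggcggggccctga
Cdk1, chr10:69352863-69353162: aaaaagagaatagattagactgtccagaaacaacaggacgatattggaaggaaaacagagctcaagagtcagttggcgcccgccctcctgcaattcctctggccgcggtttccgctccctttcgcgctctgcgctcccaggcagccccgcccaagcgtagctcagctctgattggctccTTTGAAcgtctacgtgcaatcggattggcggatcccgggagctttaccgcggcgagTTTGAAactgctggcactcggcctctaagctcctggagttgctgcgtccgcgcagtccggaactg
Of the 26 mitosis list genes with a promoter window, 84.6% held CCAAT and 80.8% held TTTGAA, against 42.4% and 16.1% of the 14746 windows of all genes. Of the 24 S phase genes with a window, 58.3% held CCAAT, 12.5% TTTGAA and 50.0% GCGGGAA, an E2F-like core that 8.0% of all windows held and no mitosis window did. Both strands were searched, none of these motifs contains another, and a match is a description of letters only.

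For genes that handle RNA and protein synthesis the counts depended on the scaling. Of 31 translation factor genes 22 fell and 2 rose on the CPM scale (RLE 15 and 6), with a median of −0.38. The elongation factor Eef1a1 had 1457, 1727 and 1549 CPM at P0.5, against 2755, 3467 and 3000.5 CPM at E15.5 (log2 difference −0.96, SE 0.11). Eef1a2, the form that replaces it in mature neurons and muscle, was also lower, with 12.9, 13.3 and 13.8 CPM at P0.5, against 44.6, 53.8 and 48.5 CPM at E15.5, and it averaged 74.5 ± 3.44 CPM at P10 (SD, n = 3). Eif4a1, the helicase of cap-dependent initiation, differed by −1.21 (SE 0.07).

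Cytosolic ribosomal protein genes did not move as a block: of 79 tested, 35 fell and 22 rose on the CPM scale, with a median of −0.05, and under RLE scaling 23 fell and 35 rose. Rpl39 had 866, 913 and 865 CPM at P0.5, against 283, 327 and 325 CPM at E15.5 (log2 difference 1.499, SE 0.07), and Rpl13 and Rpl37a rose by 1.25 and 1.09. Rpl14 differed by −1.005. Ribosomal protein genes have many processed pseudogenes, so the assignment of reads among copies is uncertain for this family.

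Of 28 neuronal RNA-binding and splicing genes 19 fell and 2 rose (RLE 16 and 6), with a median of −0.39. Elavl2, an RNA stabiliser of early neurons, had 44.1, 43.1 and 52.3 CPM at P0.5, against 151, 202 and 174 CPM at E15.5 (log2 difference −1.89, SE 0.09). Ptbp2, the splicing repressor that neurons lose as they mature, differed by −1.18. Of 30 chromatin and DNA methylation genes 16 fell and 6 rose (RLE 13 and 10), among them the remodeller Smarca4 (−1.42), the deacetylase Hdac2 (−1.32) and the Polycomb methyltransferase Ezh2 (−1.32). Of 30 proteasome genes 15 fell and 7 rose (RLE 14 and 11), with the ATPase subunit Psmc5 at −1.32. In the chromatin and proteasome lists the share that fell was not far above the 44.4% of all tested genes.

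The list of secretory pathway and endoplasmic reticulum chaperones, drawn up after these values had been seen, had 20 tested members, of which 17 fell and 2 rose (RLE 16 and 2), and 9 fell at least 2-fold. Hsp90b1, the chaperone Grp94, had 96.0, 93.9 and 98.1 CPM at P0.5, against 282, 331 and 310.3 CPM at E15.5 (log2 difference −1.67, SE 0.06). Hspa5, the chaperone BiP, had 85.1, 89.96 and 92.9 CPM at P0.5, against 206, 223 and 225 CPM at E15.5. Pdia4, a disulfide isomerase, differed by −2.01. The summed level of 4 fibroblast markers, cells that secrete much protein, was 100.9 to 136.0 CPM at P0.5, against 277.4 to 420.8 CPM at E15.5, and its part in these changes was not tested.

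Genes of synaptic transmission rose in part. Of 33 synaptic vesicle and release genes 16 rose and 8 fell (RLE 18 and 6), with a median of 0.13. Vamp1, the vesicle SNARE of motor nerve terminals, had 398, 366 and 371 CPM at P0.5, against 110.0, 89.2 and 105 CPM at E15.5 (log2 difference 1.89, SE 0.08, limma adjusted p 5.7e-11). Sv2c, a vesicle glycoprotein, had 8.28, 6.29 and 7.70 CPM at P0.5, against 1.90, 1.87 and 1.83 CPM at E15.5 (log2 difference 1.55, SE 0.11). Rab3c, a vesicle GTPase, differed by −0.94.

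The genes of both GABA-synthesising enzymes rose, Gad2 by 1.21 and Gad1 by 0.85 on the log2 scale. The summed level of 5 inhibitory interneuron markers was 51.5 to 52.5 CPM at P0.5, against 26.3 to 36.2 CPM at E15.5, and that of 4 excitatory interneuron markers was 49.2 to 51.0 CPM at P0.5, against 41.7 to 46.3 CPM at E15.5. Of 13 genes of excitatory neuron transmission 8 rose and 3 fell (RLE 8 and 3), with Tlx3, a selector of excitatory fate, at 0.74. Of 12 chloride and inhibitory transport genes 5 rose and 5 fell (RLE 5 and 4). Slc12a5, the chloride exporter KCC2 that makes GABA inhibitory, overlapped between ages, with 76.2, 68.5 and 74.7 CPM at P0.5, against 76.0, 76.6 and 72.5 CPM at E15.5 (adjusted p 0.62).

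Receptor genes were mixed. Of 18 ionotropic glutamate receptor genes 5 rose and 7 fell (RLE 6 and 5): Grin1, the obligate NMDA receptor subunit, had 101, 93.1 and 95.9 CPM at P0.5, against 51.2, 48.3 and 51.7 CPM at E15.5, while Gria2, the AMPA receptor subunit that limits calcium entry, had 18.8, 18.7 and 18.9 CPM at P0.5, against 39.5, 41.3 and 40.3 CPM at E15.5. Of 18 GABA and glycine receptor genes 5 rose and 10 fell (RLE 5 and 4). Glra2, the fetal glycine receptor subunit, had 53.2, 51.0 and 56.5 CPM at P0.5, against 102, 120.1 and 112 CPM at E15.5 (log2 difference −1.04, SE 0.10). Gphn, the scaffold gephyrin that anchors these receptors, rose by 0.70.

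Of 28 voltage-gated sodium and calcium channel genes 8 rose and 14 fell (RLE 12 and 13), near the 27.9% and 44.4% of all tested genes. The pacemaker channel Hcn2, kept in this list, differed by 1.13. Scn9a and the T-type calcium channel Cacna1h differed by −1.14 and −1.12. Of 34 potassium channel genes 16 rose and 11 fell (RLE 18 and 8), among them Kcna1, a delayed rectifier of myelinated axons, with 16.8, 13.99 and 15.55 CPM at P0.5, against 7.43, 7.80 and 6.80 CPM at E15.5, and its auxiliary subunit Kcnab2, which rose by 1.24. Hapln4, a link protein of the perineuronal matrix, rose by 1.504 among 21 matrix genes of which 5 rose and 12 fell (RLE 6 and 9).

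Of 25 cell death and neurotrophic genes 5 rose and 11 fell (RLE 10 and 9). Ntf3, neurotrophin 3, which motor neurons make in the embryo, had 8.22, 6.77 and 9.05 CPM at P0.5, against 26.4, 31.4 and 29.8 CPM at E15.5 (log2 difference −1.75, SE 0.14). The survival factor Bcl2 had 12.1, 10.4 and 11.3 CPM at P0.5, against 21.6, 24.9 and 22.2 CPM at E15.5, and Cntfr, a receptor for ciliary neurotrophic factor, differed by −0.74. Of the fetal growth list, 12 of 15 tested genes fell and 3 rose (RLE 9 and 3), with a median of −0.78. Mycn, a transcription factor of growing progenitors, had 4.66, 4.70 and 5.44 CPM at P0.5, against 14.5, 16.5 and 16.1 CPM at E15.5. Mest, an imprinted fetal gene, went against the list, with 177, 129 and 156 CPM at P0.5, against 27.2, 43.9 and 32.8 CPM at E15.5 (log2 difference 2.14, SE 0.15). Igf2, the fetal growth factor, differed by −0.90 (limma adjusted p 0.018), which was lost without replicate 3 of each age (adjusted p 0.166). Lin28b was below the filter, with at most 0.469 CPM at P0.5, against 0.816 CPM at E15.5.

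In metabolism the respiratory chain and cholesterol synthesis differed. Of 40 respiratory chain genes 15 rose and 15 fell on the CPM scale (RLE 20 and 9), but the 5 changes of at least 2-fold were all increases. Cox6a1, a subunit of cytochrome oxidase, had 7462, 7606 and 7284 CPM at P0.5, against 2133, 1851 and 1979 CPM at E15.5 (log2 difference 1.91, SE 0.06, limma adjusted p 3.4e-12), and it averaged 2660.4 ± 36.2 CPM at P10 (SD, n = 3). Cox8a had 5911, 6178 and 5973 CPM at P0.5, against 2731, 2822 and 2819 CPM at E15.5, and Sdhd and Ndufa2, of complexes II and I, rose by 1.44 and 1.14.

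Of 26 genes of cholesterol and myelin lipid synthesis 16 fell and 7 rose (RLE 14 and 7). Msmo1, an enzyme of cholesterol synthesis, had 32.5, 29.6 and 31.8 CPM at P0.5, against 114, 107 and 114 CPM at E15.5. Srebf2, the transcription factor that induces the enzymes of this pathway, had 67.2, 56.0 and 62.9 CPM at P0.5, against 25.3, 26.4 and 26.0 CPM at E15.5, and Ugt8a, the enzyme of the myelin lipid galactosylceramide, rose by 1.29. Of 21 glycolysis genes 6 rose and 4 fell (RLE 11 and 4), none of them 2-fold.

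Of 19 antigen presentation and interferon genes 9 rose and 6 fell (RLE 10 and 5). B2m, the light chain of class I molecules, had 133, 146 and 158 CPM at P0.5, against 31.7, 31.9 and 32.7 CPM at E15.5 (log2 difference 2.14, SE 0.08), and the heavy chain H2-D1 had 113, 107 and 109 CPM at P0.5, against 53.5, 42.7 and 48.8 CPM at E15.5. Of 14 immediate early genes 3 rose and 9 fell (RLE 3 and 8). Egr1 had 10.5, 8.04 and 9.27 CPM at P0.5, against 2.44, 2.103 and 2.92 CPM at E15.5, and Ier3 differed by −1.24.

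Of 19 microglia and macrophage genes 8 rose and 5 fell (RLE 10 and 4). Tyrobp, an adaptor of microglial receptors, had 34.3, 51.6 and 38.3 CPM at P0.5, against 20.6, 9.70 and 17.9 CPM at E15.5, and C1qa, a complement component made by microglia, differed by 1.02. Summed over 5 microglia markers, the level was 27.0 to 38.5 CPM at P0.5, against 20.5 to 24.7 CPM at E15.5. Of 21 endothelial and pericyte genes 15 fell and 2 rose (RLE 12 and 3). Of 21 neural progenitor genes 6 rose and 8 fell (RLE 7 and 6), near the 27.9% and 44.4% of all tested genes. At least 2-fold, 2 rose and 2 fell. Id3, an inhibitor of differentiation factors, and Olig2 rose by 1.47 and 1.22, while Hes5 and Msi1 fell by 1.31 and 1.13. The retinoic acid binding protein Crabp1, outside the list, rose by 1.51.

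Transcripts typical of bone and cartilage were prominent among the largest decreases. Ibsp, bone sialoprotein of osteoblasts, had 3.39, 4.04 and 4.12 CPM at P0.5, against 53.7, 97.1 and 71.3 CPM at E15.5 (log2 difference −3.91, SE 0.16, limma adjusted p 2.5e-10). Bglap, osteocalcin, had 3.79, 1.49 and 1.85 CPM at P0.5, against 33.9, 19.5 and 28.8 CPM at E15.5, though its near-identical copy Bglap2 makes the assignment of reads uncertain. Col2a1, the collagen of cartilage, had 22.3, 20.8 and 20.7 CPM at P0.5, against 102, 82.3 and 96.1 CPM at E15.5. In a cartilage and bone list drawn up after these values had been seen, 22 of 23 tested genes fell and 1 rose (RLE 21 and 1), the rise was lost without replicate 3 of each age, 19 fell at least 2-fold, and the share of all CPM was 0.0195% at P0.5, against 0.0813% at E15.5. Spp1, osteopontin, is expressed by bone cells and by some motor neurons, and had 39.6, 33.4 and 36.9 CPM at P0.5, against 275, 271 and 289 CPM at E15.5.

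Most adipocyte and neutrophil genes fell. Of 11 adipocyte genes 8 fell and none rose (RLE 8 and 0), with 6 at least 2-fold lower, and of 9 neutrophil genes 7 fell and 1 rose (RLE 7 and 1), all 7 at least 2-fold. Both lists were drawn up after these values had been seen. Car3, a carbonic anhydrase of fat and slow muscle, had 20.4, 7.64 and 16.7 CPM at P0.5, against 111, 345 and 191 CPM at E15.5, a wide spread among the E15.5 libraries. S100a8, a neutrophil protein, had 15.46, 14.7 and 17.9 CPM at P0.5, against 57.8, 77.3 and 59.2 CPM at E15.5. Of 19 fibroblast and meninges genes 9 fell and 3 rose (RLE 7 and 4), near the 44.4% of all tested genes that fell, but without replicate 3 of each age 5 fell and 2 rose, and neither Col1a1 (adjusted p 0.264) nor Col1a2 (adjusted p 0.0854) passed the test.

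The embryonic globins separated the ages. Hba-x, the embryonic alpha-like globin, had no read in any P0.5 library, against 8.34, 10.6 and 9.55 CPM at E15.5, and was at least 223.5-fold lower. Hbb-y, an embryonic beta-like globin, had 0.0858, 0.348 and 0 CPM at P0.5, against 13.3, 18.9 and 13.9 CPM at E15.5 (log2 difference −3.83, SE 0.13). The adult beta globins overlap in sequence, and Hbb-bt had 155, 159 and 146 CPM at P0.5, against 614, 512 and 558 CPM at E15.5, while Hbb-bs differed by −0.43 and was lost without replicate 3 of each age (adjusted p 0.0513). Of 7 tested erythroid genes 6 fell and none rose (RLE 5 and 0).

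Skeletal muscle transcripts varied among libraries of one age. Summed over 3 muscle markers, the level was 714.2 to 3299 CPM at P0.5, against 469.1 to 906.6 CPM at E15.5, and of 20 muscle genes 1 rose and none fell (RLE 1 and 0). That gene, Acta1, skeletal actin, had 2494, 544 and 1566 CPM at P0.5, against 281, 515 and 357 CPM at E15.5. Tcap, telethonin of the sarcomere, had 194, 33.8 and 115 CPM at P0.5, against 8.20, 12.1 and 9.92 CPM at E15.5, and is among the 15 largest increases. Without replicate 3 of each age neither passed the test (adjusted p 0.309 for Acta1 and 0.086 for Tcap).

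Of the remaining lists, 10 of 15 sensory neuron genes fell and 2 rose (RLE 10 and 3). Together 4 sensory neuron markers had 1.09 to 2.61 CPM at P0.5, against 5.66 to 6.55 CPM at E15.5. Of 12 Schwann cell genes 4 rose and 2 fell (RLE 6 and 2), and 3 Schwann cell markers summed to 31.0 to 54.5 CPM at P0.5, against 16.3 to 18.1 CPM at E15.5. Of 11 ependymal and cilia genes 5 rose and 3 fell (RLE 5 and 1). Without replicate 3 of each age the rises and falls were 2 and 1 for the Schwann cell list, 4 and 1 for the ependymal and cilia list, 5 and 5 for the neural progenitor list and 3 and 6 for the GABA and glycine receptor list. They were 5 and 3 for chloride and inhibitory transport, 3 and 18 for the neuronal cytoskeleton, 3 and 9 for cell death and neurotrophic genes, 12 and 9 for the respiratory chain and 3 and 4 for glycolysis. How far the amount of bone, fat, blood, muscle and nerve in the sample, or the level of the cord dissected, moved the other results was not tested.

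**Figure D4:**
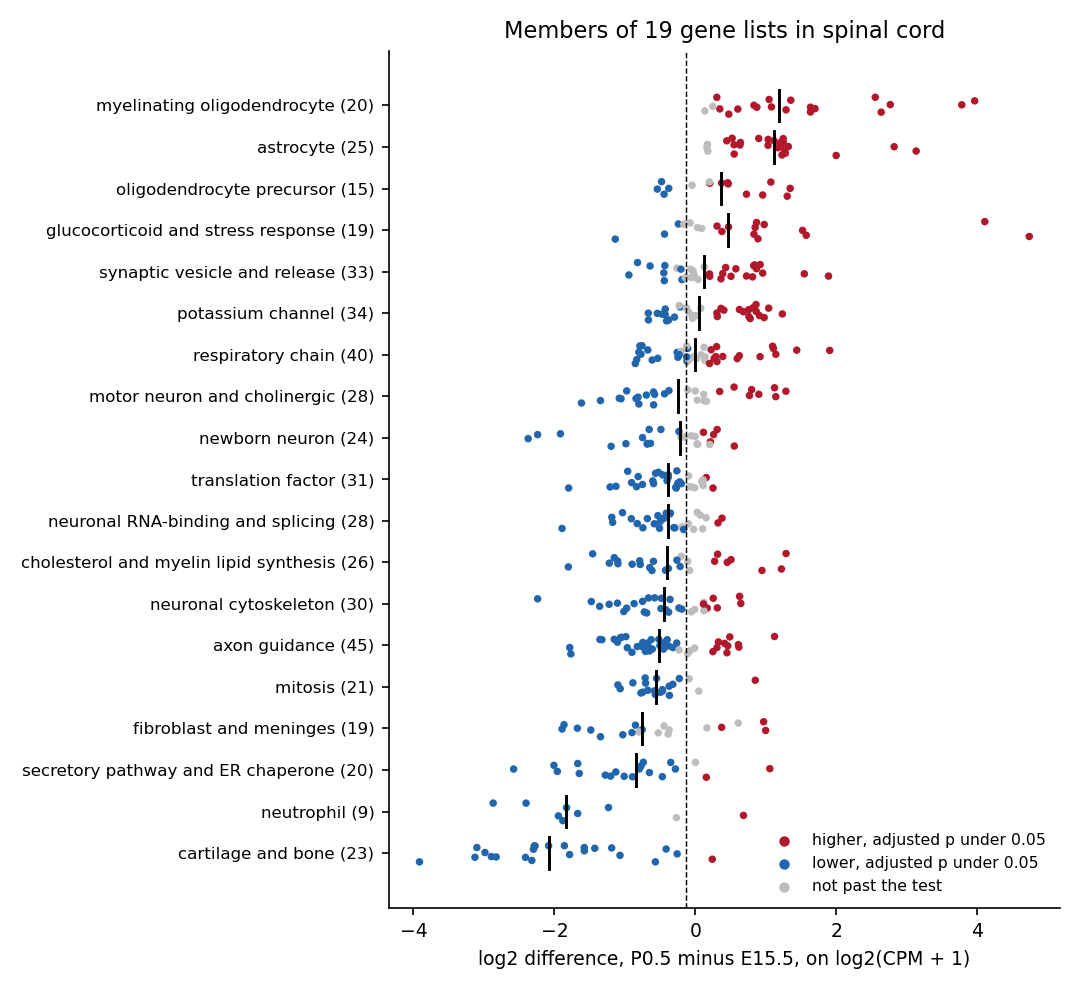
Difference of each tested list member, P0.5 minus E15.5 on the log2(CPM + 1) scale, for 19 gene lists with the number of tested genes in parentheses. Black ticks are list medians and the dashed line is the median of all tested genes, −0.13, and the myelinating oligodendrocyte and astrocyte lists lie to the right of it, with medians of 1.19 and 1.12.

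Median gene length also differed between the directions, which was described on the CPM scale only and not tested. The 588 genes at least 2-fold higher had a median genomic length of 11.96 kb (583 with a length), against 22.6 kb for the 809 at least 2-fold lower and 23.7 kb for all tested genes. The quartiles overlapped widely, at 4.7 to 35.6 kb, 9.7 to 55.2 kb and 9.9 to 59.2 kb in the same order.

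The Cre-positive diaphragm of the same 2 ages, with 3 libraries at P0.5 and 3 at E15.5, was used to test where these changes differed between tissues. Cre-negative diaphragm, with 3 libraries at each of these ages, was not used. RNA that came without the tag was therefore not set apart in the diaphragm changes. The diaphragm libraries are separate from the spinal cord libraries, and a single fit of 24 Cre-positive libraries tested whether the change differed between tissues. It differed for 5734 of 14831 genes (38.7%), with 3978 changes higher in spinal cord (26.8%) and 1756 lower (11.8%). In the diaphragm 695 genes rose at least 2-fold (4.69%) and 2928 fell (19.7%), but this balance depended on the scaling, with 1089 and 2121 under RLE, 1498 and 1603 under TMM and 1433 and 1414 after quantile normalization. Its P0.5 replicates 1 and 3 were nearly the same library in composition, since replicate 1 was best written with a weight of 0.966 on replicate 3.

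Of the 588 genes at least 2-fold higher in P0.5 spinal cord, 50 (8.5%) were also at least 2-fold higher in P0.5 diaphragm and 86 (14.6%) at least 2-fold lower. These 50 are 8.5% of the 586 diaphragm genes that rose among those tested in both tissues. Of all genes tested in both, 4.4% rose at least 2-fold in diaphragm and 18.7% fell. Of the 809 genes lower in spinal cord, 256 (31.6%) were also lower in diaphragm and 19 (2.3%) higher. These 256 are 10.2% of the 2502 genes that fell in diaphragm. Under TMM scaling, tried after these counts were seen, 17.4% of the genes higher in spinal cord were also higher in diaphragm and 8.1% lower, and of those lower in spinal cord 21.8% were also lower and 6.6% higher, against 9.9% higher and 9.5% lower among all genes tested in both. So which direction was the more common among the genes higher in spinal cord changed with the scaling.

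Among the leading genes, the spinal cord changes of Mt2 and Mt1 were not seen in the Cre-positive diaphragm. Mt2 averaged 225 CPM in P0.5 diaphragm, against 382 CPM at E15.5, and its change was 5.60 higher in spinal cord on the log2 scale (SE 0.45, limma adjusted p 1.7e-08). For Mt1 the tissue difference was 4.55 (SE 0.28). Hoxc10 fell by 1.07 in the diaphragm, with a tissue difference of 5.52 (SE 0.36), and Ube2c fell by 4.05 there, with a tissue difference of 4.90 (SE 0.26). In contrast Sox11 and Dcx were lower at P0.5 in both tissues, by 2.37 and 1.19 in spinal cord and by 2.36 and 1.34 in diaphragm, and their tissue differences of −0.01 and 0.14 did not pass the test (SE 0.17 and 0.15).

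Changes of at least 2-fold in opposite directions were called for 16 of the named genes, some of them named for a large tissue difference. Over all genes tested in both, 86 rose at least 2-fold in spinal cord and fell in diaphragm, and 19 did the reverse. The 16 were picked by these changes, so a called tissue difference was likely for them and is not separate support. All 16 kept opposite signs and a called tissue difference under RLE, TMM and quantile scaling, while 11, 9 and 9 of them stayed at least 2-fold in both tissues. Eef1a2, lower in P0.5 spinal cord, rose by 1.09 in diaphragm, and the tissue difference was −2.89 (SE 0.18, limma adjusted p 5.2e-10). Acadm, a mitochondrial fatty acid oxidation enzyme, averaged 17.7 CPM in P0.5 spinal cord, against 39.8 CPM at E15.5, and 203 CPM in P0.5 diaphragm, against 49.5 CPM at E15.5. Srebf2 rose by 1.22 in spinal cord and fell by 1.37 in diaphragm. With the intermediate library of each age left out of both tissues, the number of genes whose change differed dropped to 1591.

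**Figure D5:**
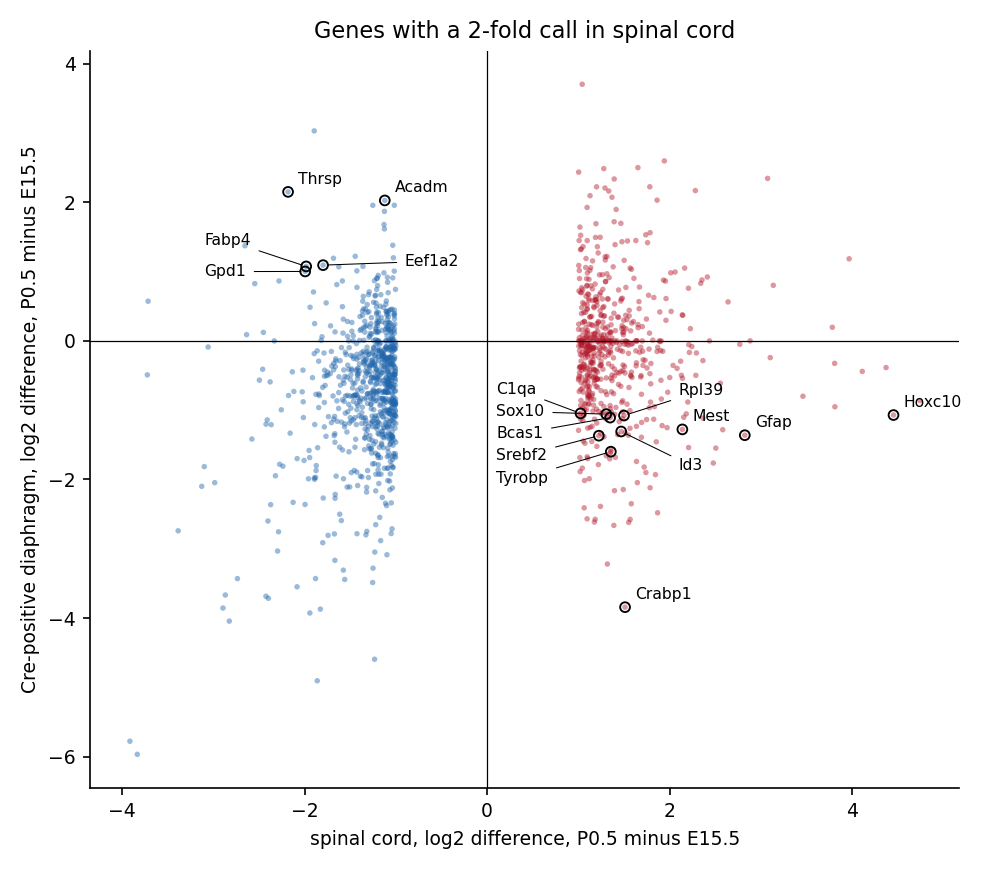
Change in spinal cord (horizontal axis) against change in Cre-positive diaphragm (vertical axis), both P0.5 minus E15.5 on the log2(CPM + 1) scale, for the 1397 genes called at least 2-fold in spinal cord. Circled and labelled are the 16 named genes called at least 2-fold in opposite directions, among them Hoxc10, Gfap and Crabp1 at the lower right and Thrsp, Acadm and Fabp4 at the upper left.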

How the data were processed

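HA-purified RNA of 6 spinal cord libraries, 3 at P0.5 and 3 at E15.5, was compared. The labels state RNeasy micro kit extraction and a BGI library protocol. The deposited values are CPM for 18845 genes. The submitters' processing notes name Bowtie2 2.2.5, RSEM 1.2.12 and mm10, with no roles given. Columns were matched to samples by title. The read counts behind the deposited CPM were recovered from their step size, with values within 0.1 of a whole number in 100.0% of cases, except in P0.5 replicate 3 of Cre-positive diaphragm, whose step could not be settled. Depth was 63.7 to 71.8 M reads in the 12 spinal cord libraries, and intervals from reads cover counting error only.

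Differences on log2(CPM + 1) of the deposited values were tested with limma 3.58.1 (trend and robust) in R 4.3.3 over 12 spinal cord libraries, after a filter of 1 CPM in at least 3 libraries (2 where an age kept only 2), with Benjamini-Hochberg adjustment. The plan left the unit to be found in the files. The fit of 24 Cre-positive libraries gave the tissue difference. Alternatives were a pseudocount of 0.1, no filter, a filter at 10 CPM, quantile, RLE and TMM scaling, edgeR 4.0.16 and DESeq2 1.42.0 on recovered read counts, a fit of only the groups compared, replicate blocks and leaving libraries out. Count tools were not run for the tissue difference. On simulated data with 12998 genes, the age fit recovered 89.6% of 67 genes changed 1.5-fold and 100% of those changed 2-fold or 4-fold, with 27 false calls. The simulation drew every age from the E15.5 means, with few changed genes, an assumed spread and independent libraries. In the real data most tested genes were called and replicate 3 lay between the others. The simulation therefore checks the code and does not give the error rate here.

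The samples, 39 gene lists and tests were chosen with earlier results of these data known, and 8 lists and the metal response motif were added after the values were seen. Named genes are the 15 largest changes per direction with at least 10 CPM and no overlap, up to 4 changed members of each list, the 6 largest tissue differences per direction, members of the added lists, and Chat, Slc18a3, Slc5a7, Isl1, Mnx1, Rpl22, Lin28b, Igf2, Slc12a5, Mki67 and Mbp. Other list members named in the text were picked after their values were seen. Some genes that this rule picks are not reported here. Of the gene identifiers, 18719 matched RefSeq. Promoter comparisons of the 2-fold genes were left out because 79.3% of tested genes had a window, and gene length replaced protein length.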

Additional observations from a re-analysis of the deposited data

Results flagged for a closer look

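Of the genes named here, 16 changed at least 2-fold in one direction in spinal cord and at least 2-fold in the other in Cre-positive diaphragm, and the test of the difference between the tissues passed for each (limma, adjusted p under 0.05). The genes were picked for opposite changes in the same libraries, so that test was likely to pass and adds no separate support. Values are log2 differences, P0.5 minus E15.5, with 3 libraries per age and tissue. For 11 of them the change was higher in spinal cord. Crabp1 rose by 1.51 in spinal cord and fell by 3.84 in diaphragm, a difference of 5.35. The difference was 5.52 for Hoxc10, which rose by 4.45 in spinal cord and fell by 1.07 in diaphragm. In diaphragm Gfap fell by 1.36 while it rose by 2.82 in spinal cord, and the tissues differed by 4.18. Mest rose by 2.14 in spinal cord and fell by 1.28 in diaphragm, a difference of 3.42. The difference was 2.95 for Tyrobp, which rose by 1.36 in spinal cord and fell by 1.60 in diaphragm. In diaphragm Id3 fell by 1.31 while it rose by 1.47 in spinal cord, and the tissues differed by 2.78. Srebf2 rose by 1.22 in spinal cord and fell by 1.37 in diaphragm, a difference of 2.59. The difference was 2.58 for Rpl39, which rose by 1.499 in spinal cord and fell by 1.08 in diaphragm. In diaphragm Bcas1 fell by 1.11 while it rose by 1.35 in spinal cord, and the tissues differed by 2.45. Sox10 rose by 1.31 in spinal cord and fell by 1.06 in diaphragm, a difference of 2.36. The difference was 2.07 for C1qa, which rose by 1.02 in spinal cord and fell by 1.05 in diaphragm.

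For the other 5 the change was lower in spinal cord. Thrsp fell by 2.18 in spinal cord and rose by 2.15 in diaphragm, a difference of −4.33. The difference was −3.15 for Acadm, which fell by 1.12 in spinal cord and rose by 2.03 in diaphragm. Fabp4 fell by 1.98 in spinal cord and rose by 1.07 in diaphragm, a difference of −3.06. The difference was −3.00 for Gpd1, which fell by 1.99 in spinal cord and rose by 1.002 in diaphragm. Eef1a2 fell by 1.80 in spinal cord and rose by 1.09 in diaphragm, a difference of −2.89. In the diaphragm Gfap, Hoxc10, Bcas1, Sox10 and Crabp1 rested on low levels at P0.5, with means of 0.0381 CPM for Gfap, against 1.79 CPM at E15.5, and of 0 CPM for Hoxc10, against 1.35 CPM at E15.5. The call for Fabp4 in spinal cord was lost without replicate 3 of each age (adjusted p 0.108).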

How the results depend on the processing

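The CPM-scale counts (9668 changed genes, 1397 at least 2-fold, 5734 with a tissue difference) stayed within 1.5 times under most alternatives. A filter at 10 CPM, which tests 8082 genes, gave 6272 changed genes, 3718 of them lower. At least 2-fold changes numbered 2201 with a pseudocount of 0.1 (1330 lower), 2180 with edgeR on read counts (1214 higher) and 2191 with DESeq2 (1236 higher), and 483 were lower with RLE and 482 with TMM. The share of changed genes that rose was 49.6% with edgeR and 50.2% with DESeq2, against 38.6%. Without the intermediate library of every age 1591 genes differed between tissues, 1061 higher and 530 lower, from fewer samples, and quantile normalization gave 2620 higher and 2883 lower. The cause of the other shifts was not tested. Leaving out each P0.5 or E15.5 spinal cord library gave 9129 to 9582 changed genes (3436 to 3787 higher, 5622 to 5908 lower) and 1277 to 1543 at least 2-fold (523 to 651 higher, 754 to 892 lower). Leaving out each P0.5 or E15.5 library of either tissue gave 5062 to 6904 tissue differences (3465 to 5039 higher, 1507 to 1876 lower). Same-numbered libraries of the ages had correlated deviations of −0.03, −0.1 and 0.1, so the numbers do not pair them. The replicate block gave 9843 changed genes, 1397 at least 2-fold and 5699 tissue differences. Of the 2-fold genes higher in spinal cord, 13.6% were also higher in diaphragm with RLE, 17.4% with TMM and 16.2% with quantile normalization, against 8.5%, and this was added after the data were seen. Of 244 changes of single genes none reversed, and 22 were lost without the intermediate libraries, 8 with RLE, 7 with edgeR, 6 with DESeq2, 3 with the block and 3 to 10 on leaving out a library. The 94 counts over gene lists gave 1786 values under the alternatives, of which 1560 stayed within 1.5 times and 226 moved further. Reads per gene limit only the low genes: a gene at 1 CPM had at least 63.7 reads, and the number of libraries limits the rest.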
